A study of Rattus norvegicus with 7 samples.

Results

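The miR-99, miR-100 and miR-125 families were followed in rat liver as every probe set named miR-99a, miR-99b, miR-100, miR-125a or miR-125b, with either arm of the hairpin, on an Agilent rat miRNA array. The name alone chose them, and 11 of the 677 miRNAs on the array belonged. The families were selected for description on earlier values of the same arrays, namely the PFOS minus Control differences and the arm ratios. The values of that comparison are therefore given with their errors as a description. No p is printed for a member, and the count of members called in the fit over all miRNAs stands only beside the share called overall.

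The livers came from adult male Sprague-Dawley rats. Perfluorooctanesulfonate (PFOS), a fluorinated surfactant that persists in the body, was given in the feed at 50 mg/kg over 28 days to 1 group, and the Control group ate the control diet for the same time. RNA of 4 rats per group was hybridised, 1 rat per array, and the submitters removed 1 Control array after quality control, which left 4 PFOS and 3 Control arrays. The study asked how hepatic miRNAs respond to PFOS alongside thyroid hormone homeostasis. With 1 array per rat, the errors measure the spread between rats together with that of labelling and array, which cannot be told apart.

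A miRNA is cut from a hairpin as a short duplex, and the arm kept in the Argonaute protein pairs with messenger RNAs mainly through its seed, bases 2 to 8 from the 5′ end. The less stable passenger arm is usually degraded and is marked with a star in older names. miR-125 is the mammalian counterpart of Caenorhabditis elegans lin-4, and miR-99 and miR-100 are related to the miR-10 family and are known to target mTOR. In mammals these miRNAs lie in clusters together with let-7, a regulator of developmental timing.

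The mature sequences below show which family members share a seed and how few bases separate them. They are rat entries of RefSeq on GRCr8, which held 8 of the 11 members (not miR-99a, miR-125b-3p or miR-125b*), and the seed is in capitals. miR-10a-5p is printed as a relative outside the families, and the member miR-100* is not printed.

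miR-100: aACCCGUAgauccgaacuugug
miR-99b: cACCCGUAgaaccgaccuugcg
miR-10a-5p: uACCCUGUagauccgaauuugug
miR-125a-5p: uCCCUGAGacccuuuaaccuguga
miR-125b-5p: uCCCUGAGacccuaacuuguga
miR-99a*: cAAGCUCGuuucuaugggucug
miR-99b*: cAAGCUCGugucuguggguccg
miR-125a-3p: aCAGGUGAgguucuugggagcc

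miR-100 and miR-99b had the same seed and differed at 4 of 22 bases, A1C, U11A, A16C and U21C, written as the base in miR-100, the position counted from the 5′ end, and the base in miR-99b. miR-10a-5p shared a run of 11 bases with miR-100 but had another seed. miR-125a-5p and miR-125b-5p were identical over their first 13 bases, and their seed CCCUGAG stood in 3 of the 693 rat mature entries of the table, the third being miR-351, which was detected on 0 of the 7 arrays. The passenger arms miR-99a* and miR-99b* shared the seed AAGCUCG and differed by U10G, A14G and U21C, written as the base in miR-99a* first. miR-100* had another seed, AAGCUUG.

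On GRCr8 the genes formed 3 clusters on the plus strand, each with a let-7 gene between the other members. Mir99b, Mirlet7e and Mir125a lay on chromosome 1, where the mature miR-125a-5p covers chr1:67350689-67350712 and miR-125a-3p covers chr1:67350727-67350748. Mir100, Mirlet7a-2 and Mir125b1 lay on chromosome 8, with the mature miR-100 at chr8:50798307-50798328. Mir99a, Mirlet7c1 and Mir125b2 lay on chromosome 11, with miR-99a* at chr11:29687441-29687462 and a copy of miR-125b-5p at chr11:29732588-29732609. Since miR-125b-5p, let-7a and let-7c are each encoded at more than 1 locus, their signals cannot be assigned to a single cluster.

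An array counted as detecting a miRNA if at least 1 of its probes had more than 50% of spots well above background, and it was tested where that held on at least 3 PFOS arrays or all 3 Control arrays. Of the 11 members, 6 passed, as did 175 of all 677 miRNAs. miR-99a, miR-125b-5p, miR-100 and miR-125a-5p were detected on all 7 arrays. miR-125a-3p was detected on 4 PFOS and 2 Control arrays. Just inside the rule was miR-99a*, detected on 3 PFOS arrays and 1 Control array, and just outside it was miR-99b, detected on PFOS array 4 alone. miR-99b*, miR-100*, miR-125b-3p and miR-125b* were detected on no array, so these data give no level for them. The members had 32 probes and 220 spots per array. Of these probes, 6 were above background on every array and 18 on none.

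PFOS arrays were brighter before scaling. Their median unscaled signal over the miRNAs detected on every array was 226 to 326, against 133 to 176 on Control arrays, and their labelling spike-in was also brighter, 6571 to 10686 against 3431 to 3659. PFOS arrays detected 161 to 200 miRNAs and Control arrays 131 to 174. All signals below were scaled between arrays and loess-normalised unless called unscaled, so they describe a miRNA relative to the other miRNAs of its array, and its level in 1 probe set is not set against that in another. The part of the brightness in the members' values was not tested, and the values under other scalings are given in the closing section. Nor can fewer cells of a type be told apart from less RNA per cell in whole liver.

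miR-99a and miR-125b-5p showed no difference between the diets larger than the spread between rats. Both are guide arms, miR-99a encoded on chromosome 11 and miR-125b-5p encoded there and on chromosome 8. Normalised signal of miR-99a was 966, 838, 1149.7 and 1205 in PFOS livers 1 to 4, against 947, 897 and 1241 in Control livers 1 to 3. The groups overlapped fully, with the highest liver in the Control group and the lowest in the PFOS group. The mean was 1040 ± 169 in PFOS livers, against 1028 ± 186 in Control livers (SD, n = 4 and 3), a log2 difference of 0.02 (SE 0.17, 95% interval −0.40 to 0.43). The interval leaves room for a change of either sign. Both probes of miR-99a, each printed as 10 spots, gave log2 differences of 0.01 and 0.02. Spots of 1 probe on 1 array differed by an SD of 0.13 and 0.07 on the log2 scale for the 2 probes, less than the SD of 0.25 and 0.24 between rats of a group.

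Normalised signal of miR-125b-5p was 928, 876, 1197 and 1180.4 in PFOS livers 1 to 4, against 977, 977 and 1340.5 in Control livers 1 to 3. As for miR-99a, PFOS liver 2 was lowest and Control liver 3 highest, and the groups overlapped. The mean was 1045 ± 167 in PFOS livers, against 1098 ± 210 in Control livers (SD, n = 4 and 3), a log2 difference of −0.07 (SE 0.17, 95% interval −0.49 to 0.35). Its 2 probes gave −0.13 and −0.06.

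miR-100, the guide arm encoded on chromosome 8, was 67.1, 78.1, 69.5 and 82.1 in PFOS livers 1 to 4, against 69.1, 55.9 and 87.0 in Control livers 1 to 3. The Control livers spanned the whole PFOS range. The mean was 74.2 ± 7.06 in PFOS livers, against 70.7 ± 15.6 in Control livers (SD, n = 4 and 3), a log2 difference of 0.09 (SE 0.16, 95% interval −0.30 to 0.48). The value rests on 1 probe, since the other probe of miR-100 was above background on 0 arrays.

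miR-125a-5p, the guide arm encoded on chromosome 1, was 40.8, 41.9, 43.8 and 36.5 in PFOS livers 1 to 4, against 41.0, 45.9 and 59.5 in Control livers 1 to 3. The PFOS livers lay close together, and Control liver 1 fell within their range. The mean was 40.8 ± 3.09 in PFOS livers, against 48.8 ± 9.60 in Control livers (SD, n = 4 and 3), a log2 difference of −0.24 (SE 0.14, 95% interval −0.59 to 0.10). Without Control liver 3 the difference was −0.02. Its cluster mate miR-99b, which carries the seed of miR-100, stayed out of the fit. The unscaled signal of miR-99b was 6.8, 14.3, 18.0 and 15.9 on PFOS arrays 1 to 4, against 10.1, 6.4 and 7.8 on Control arrays 1 to 3, and its scaled signal lay at the floor set for dim values on 5 of the 7 arrays.

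**Figure D1:**
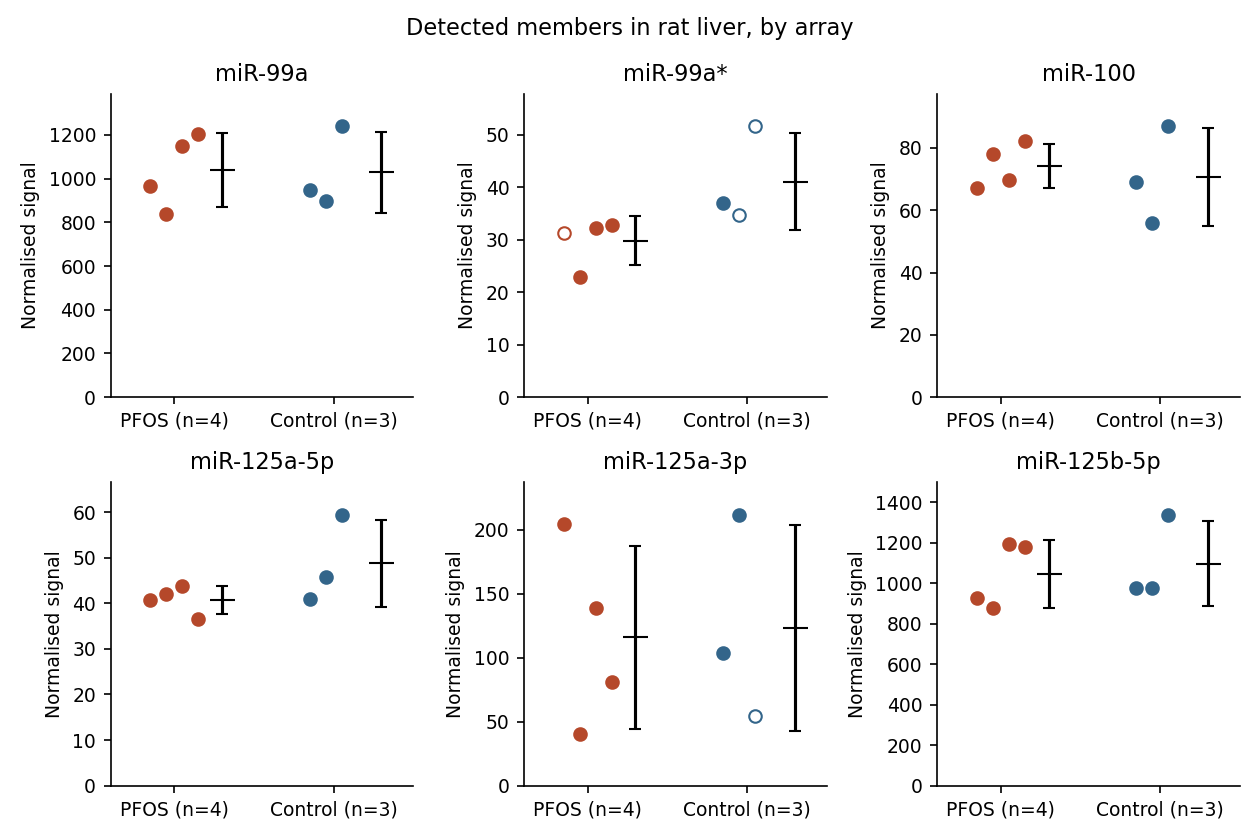
Normalised signal of the 6 members that passed the detection rule (linear axis from 0), with 1 point per liver for PFOS (left, n = 4) and Control (right, n = 3). Filled points were detected on that array and open points were not, and the bar beside each group is its mean ± SD. Groups overlap in every panel except miR-99a*.

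The passenger arm miR-99a* was the 1 member of the 6 whose groups did not overlap. Its normalised signal was 31.4, 22.9, 32.2 and 32.9 in PFOS livers 1 to 4, against 37.0, 34.6 and 51.7 in Control livers 1 to 3. Every PFOS liver lay below every Control liver, but the readings of PFOS liver 1 and Control livers 2 and 3 were not well above background. The mean was 29.8 ± 4.70 in PFOS livers, against 41.1 ± 9.25 in Control livers (SD, n = 4 and 3), a log2 difference of −0.45 (SE 0.19, 95% interval −0.92 to 0.01). Over all 175 tested miRNAs, 20.6% had groups that did not overlap, namely 10.3% with PFOS livers lower and 10.3% with PFOS livers higher. Nothing is read from the 1 member against that share, since the families were selected on this comparison.

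Several measurements bear on how far that value of miR-99a* can be read. Without Control liver 3 the log2 difference was −0.18. Unscaled, its signal was 27.6, 32.1, 51.4 and 42.2 on PFOS arrays 1 to 4, against 30.4, 21.3 and 40.6 on Control arrays 1 to 3, and the groups overlapped. They overlapped too after scaling alone, before loess, at 30.6, 25.9, 31.7 and 34.9 in PFOS livers 1 to 4, against 36.6, 31.7 and 49.5 in Control livers 1 to 3. The loess step alone gave a log2 difference of −0.17 to any miRNA whose 7 values were all at the floor. Other miRNAs detected on 3 PFOS arrays and at most 1 Control array were also lower without overlap. Examples are miR-3573-3p (−0.61), miR-296* (−0.50), miR-350 (−0.42), miR-145 (−0.25) and miR-10b. In the same detection class, let-7d* (−0.46), miR-1188-3p (−0.38), miR-331 (−0.36), miR-342-3p (−0.30) and miR-211* (−0.29) were lower with overlapping groups. So were miR-376b-3p (−0.24), miR-29c* (−0.21), miR-207 (−0.14), miR-214 (−0.13) and miR-219-5p (−0.07). Positive differences with overlapping groups were those of miR-340-5p (0.43), miR-32 (0.38) and miR-128 (0.01). Only 1 of the 4 probes of miR-99a* lay above the floor on every array, and its mean normalised signal was 15.4 in PFOS livers, against 20 in Control livers, a log2 difference of −0.38.

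miR-125a-3p, the other arm of the miR-125a hairpin, varied more between livers than between diets. Its normalised signal was 205, 40.1, 139 and 80.9 in PFOS livers 1 to 4, against 104, 212 and 54.1 in Control livers 1 to 3. High and low livers stood in both groups. The mean was 116 ± 71.6 in PFOS livers, against 123 ± 80.7 in Control livers (SD, n = 4 and 3), a log2 difference of −0.11 (SE 0.68, 95% interval −1.74 to 1.51). Its SD over the 7 arrays was 0.92 on the log2 scale, the 13th largest of the 175 tested miRNAs, whose median SD was 0.21. Each of its 4 probes was above background on 5 or 6 arrays.

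Of the 6 members tested, 2 had a positive and 4 a negative log2 difference, with a median of −0.09, beside a median of −0.03 over all 175. The limma fit over all 175, with Benjamini-Hochberg adjustment at 0.05, called 0 of the 6 members and 0% of all tested miRNAs, of which 33 had an unadjusted p under 0.05. No adjusted p in the limma fit lay below 0.126. The median SE was 0.17 for the members and 0.14 for all tested. Control array 3 was the highest of the 7 for 5 of the 6 members, against 13.1% of all tested miRNAs. PFOS array 2 was the lowest for 4 of the 6, against 20% of all tested.

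**Figure D2:**
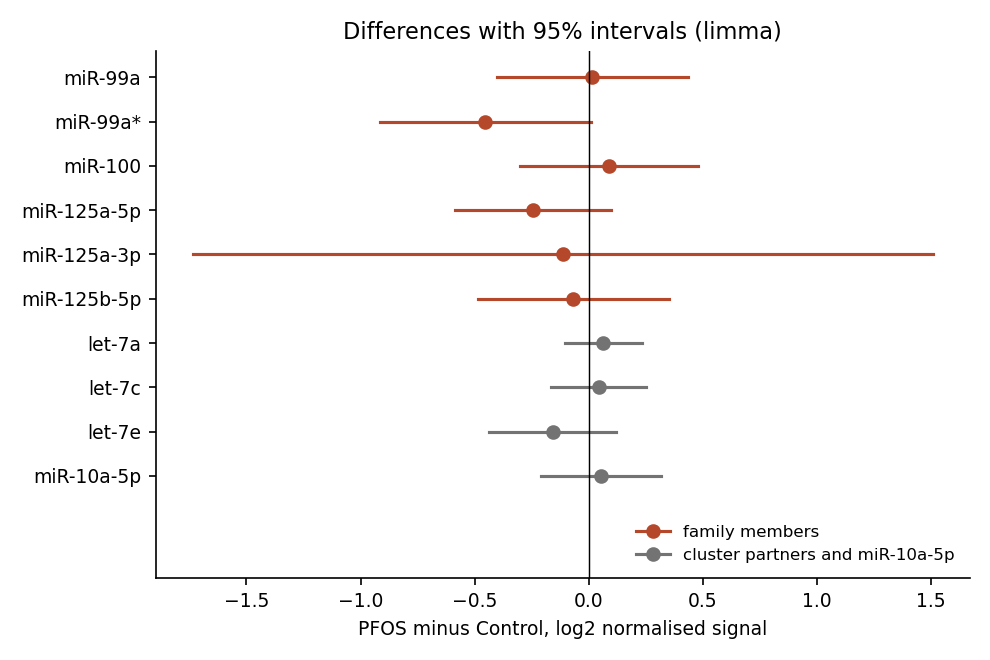
Log2 difference, PFOS minus Control, of the 6 tested members, the let-7 miRNAs of their clusters and miR-10a-5p, as points with 95% intervals from the limma fit (n = 4 PFOS and 3 Control). Every interval spans 0, and that of miR-125a-3p is the widest.

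Of the let-7 miRNAs encoded in these clusters and the miR-10 relatives, 10 miRNAs with the let-7 and miR-10 star and 3p arms, 5 were tested and 0 called. The 10 include let-7a-1*, whose name is that of a let-7a gene outside these clusters. let-7c was 2107, 1866, 2117 and 2087 in PFOS livers 1 to 4, against 1824, 2021 and 2112 in Control livers 1 to 3. The groups overlapped, with a log2 difference of 0.04 (SE 0.09). let-7a averaged 4225 ± 211 in PFOS livers, against 4039 ± 76.3 in Control livers (SD, n = 4 and 3), a log2 difference of 0.06 (SE 0.07). let-7e averaged 137 ± 15.7 in PFOS livers, against 152 ± 11.6 in Control livers, a log2 difference of −0.16 (SE 0.12). miR-10a-5p averaged 303 ± 17.1 in PFOS livers, against 293 ± 39.4 in Control livers, a log2 difference of 0.05 (SE 0.11). Adjusted p in the limma fit was 0.514 to 0.906 over these 4. miR-10b was detected on 3 PFOS arrays and on 0 Control arrays, yet its normalised reading averaged 17.5 in PFOS livers, against 20.8 in Control livers, so no fold is given. let-7a-1* was detected on 1 array, and miR-10a-3p, miR-10b*, let-7c-1* and let-7e* on 0.

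The balance between the arms of a hairpin was compared within each array, which cancels any factor that scales the whole array. It does not cancel background left in dim readings or a step that depends on intensity, such as loess. Their part in the ratios was not tested. Of 24 precursors with both arms tested, 2 belonged to these families. The log2 ratio of miR-99a over miR-99a* was 4.94, 5.20, 5.16 and 5.19 in PFOS livers 1 to 4, against 4.68, 4.69 and 4.58 in Control livers 1 to 3. Every PFOS liver lay above every Control liver, and only differences between livers can be read, since the 2 arms have different probes. The log2 difference was 0.47 (SE 0.10, 95% interval 0.23 to 0.71). It rests on readings of miR-99a* that were not well above background on PFOS array 1 and on Control arrays 2 and 3, so its exact size is uncertain. It ranked 8th in size among the 24 precursors, of which 16.7% had groups that did not overlap and 0% were called in the limma fit. The median difference over the 24 was 0.04, and their range was −0.80 to 1.55. This ratio was among the values known when the families were chosen, so it is no independent evidence.

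miR-99a itself had a log2 difference near 0, so the higher ratio went with the lower reading of the dim passenger arm. With miR-99a* read by its 1 probe above the floor on every array, the log2 ratio was 5.87, 6.16, 6.15 and 6.12 in PFOS livers 1 to 4, against 5.71, 5.63 and 5.70 in Control livers 1 to 3. The difference was 0.39. That probe is part of the summed miR-99a* signal and was above background on 3 of the PFOS arrays but only 1 of the Control arrays, so this is a second reading of the same measurement. The arrays stood in 2 rows of the slide, each with both diets, and the difference was 0.39 in row 1 and 0.54 in row 2. In the authors' deposited table of log2 values, miR-99a* was 5.65, 5.69, 5.72 and 5.80 in PFOS livers 1 to 4, against 5.71, 5.67 and 5.82 in Control livers 1 to 3. miR-99a there was 9.02, 8.69, 9.08 and 9.16 in PFOS livers, against 9.05, 9.01 and 9.51 in Control livers, and the ratio difference in that table turned to −0.18, with overlapping groups. The groups also overlapped for the ratio under quantile normalisation and under normexp background correction.

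**Figure D3:**
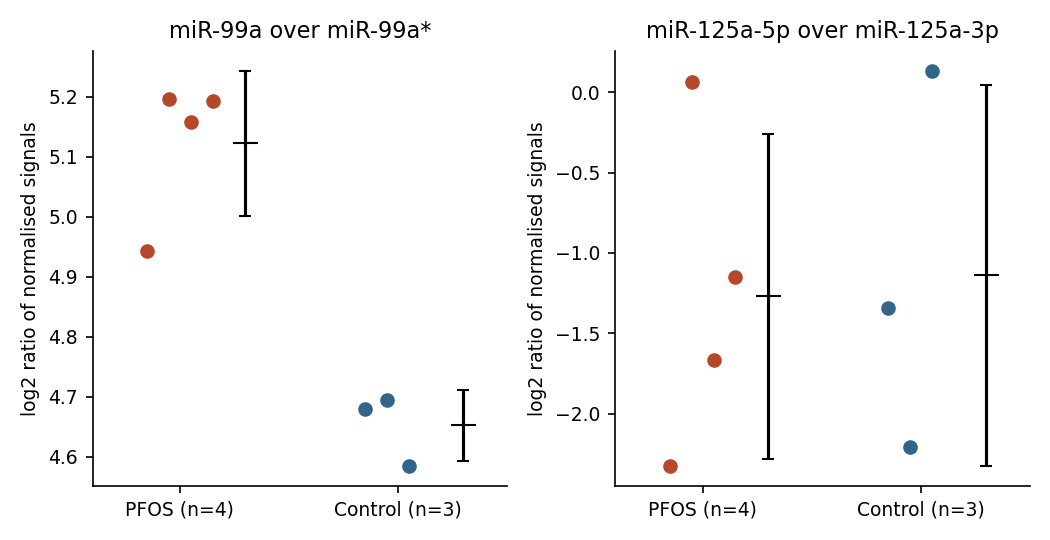
Log2 ratio of the 2 arms of a hairpin on each array, for PFOS (left, n = 4) and Control (right, n = 3), with the group mean ± SD beside the points. The axes do not start at 0 and differ in range. For miR-99a all PFOS livers lie at 4.94 or above and all Control livers at 4.69 or below, while for miR-125a the groups overlap.

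The log2 ratio of miR-125a-5p over miR-125a-3p was −2.33, 0.06, −1.67 and −1.15 in PFOS livers 1 to 4, against −1.34, −2.21 and 0.14 in Control livers 1 to 3. Both groups spanned almost the same range. The log2 difference was −0.13 (SE 0.72, 95% interval −1.85 to 1.59), and it was 0.21 in slide row 1 and −0.37 in row 2. The interval is too wide to tell a shift in arm balance from none.

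miR-99a and miR-125b-5p followed each other across the 7 livers. Likeness was measured as the root mean square difference between the log2 profiles of 2 miRNAs after each was centred on its mean of the 7 arrays, and it is given as a description. It was 0.06 for miR-99a and miR-125b-5p, the smallest of the 174 other tested miRNAs for either member, whose median distance from miR-99a was 0.28. The log2 ratio of miR-99a over miR-125b-5p spanned a range of 0.18 over all 7 livers. Outside the families, the nearest to miR-99a were miR-3559-5p (0.15), let-7c (0.16) and miR-142-3p (0.17), and the nearest to miR-125b-5p were miR-3559-5p (0.14), miR-199a-5p (0.15) and let-7c (0.17). The points share array, RNA extract and scaling. The other arm of the same hairpin, miR-99a*, ranked 59th for miR-99a, at 0.25.

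miR-100 was nearest to miR-199a-5p (0.13), miR-199a-3p (0.15) and miR-26b (0.16), and it stood 11th from miR-99a, at 0.19. miR-199a-5p and miR-199a-3p are known from hepatic stellate cells and fibroblasts. miR-199a-5p was 39.3, 49.1, 49.7 and 50.3 in PFOS livers 1 to 4, against 43.1, 40.8 and 64.7 in Control livers 1 to 3. Control liver 3 was highest for both miR-100 and miR-199a-5p. All 5 of the stellate and fibroblast miRNAs listed (miR-143, miR-145, miR-199a-5p, miR-199a-3p and miR-214) were tested and 3 were detected on every array. Of these 5, 1 had a positive and 4 a negative log2 difference. Their summed signal was 742 to 1045 in PFOS livers and 813 to 1035 in Control livers, and their part in the members' values was not tested. The 4 hepatocyte miRNAs on the array, miR-122 among them, were detected on every array, and 0 were called. Their log2 differences were all negative, from −0.01 for miR-122 to −0.26 for miR-122*, and 101 of all 175 tested miRNAs were negative. Of the neuronal list, miR-124 and miR-9 were detected on none. Of the 5 miRNAs of the epithelial and biliary list 3 were tested, all with a positive log2 difference, and 0 were called in the limma fit. Only 2 of the 5 were detected on every array, and miR-200c and miR-141 on none. The summed signal of the 3 tested was 292 to 546 in PFOS livers, against 63.4 to 189 in Control livers. These ranges did not overlap, and the groups of 20.6% of all 175 tested miRNAs did not overlap either. Its part in the members' values was not tested.

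**Figure D4:**
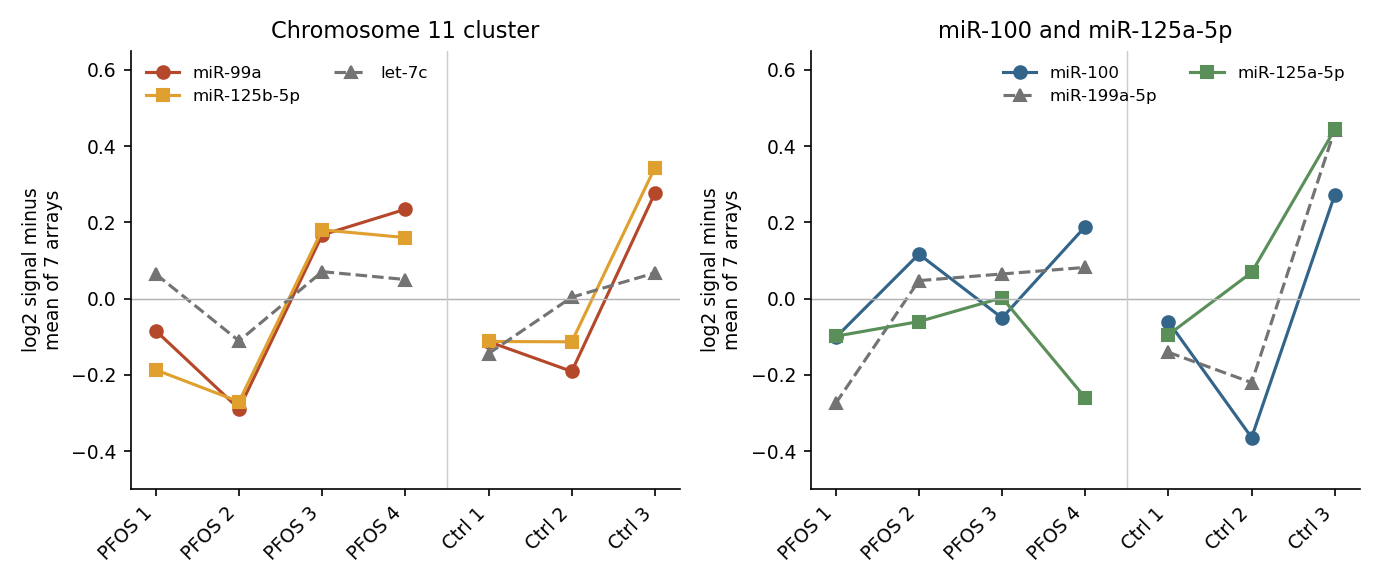
Log2 signal of each miRNA minus its mean over the 7 arrays, by array, with the 4 PFOS livers left of the 3 Control livers. miR-99a and miR-125b-5p run together with a root mean square difference of 0.06, and Control 3 is highest for all 5 miRNAs other than let-7c.

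The profile of miR-125a-3p was unlike that of the other arm of its hairpin. Its distance from miR-125a-5p was 0.92, rank 128 of 174. The miRNAs nearest to it, looked up after its values were seen, were miR-743a (0.14), miR-3562 (0.15), miR-547 (0.25), miR-878 (0.29), miR-3561-5p (0.33) and, in 6th place, miR-451 (0.42). miR-451 is an erythroid miRNA abundant in red blood cells. Its normalised signal was 934, 378, 941 and 471 in PFOS livers 1 to 4, against 714, 812 and 444.5 in Control livers 1 to 3. PFOS livers 1 and 3 and Control liver 2 were the highest for both miRNAs, and PFOS liver 2 and Control liver 3 the lowest. Both miR-451 and miR-144, the erythroid markers listed, were detected on every array, and they summed to 442 to 1076 in PFOS livers and 522 to 939 in Control livers. The part of erythroid RNA in the miR-125a-3p values was not tested.

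The spots of miR-125a-3p also disagreed among themselves. The SD between the 5 spots of 1 probe on 1 array, as a median over arrays, was 0.25 to 0.74 on the log2 scale for its 4 probes. It was 0.07 to 0.16 for the 6 member probes above background on every array. Over 59 probes of tested miRNAs in the same range of unscaled signal, 27.4 to 45.4, the median was 0.18. The 10 probes of miR-743a, miR-3562, miR-547, miR-878 and miR-3561-5p had 0.26 to 0.73. The miRNAs whose profiles lay nearest to miR-125a-3p thus had similarly discordant spots, and what the discordance shares with the profile was not tested.

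**Figure D5:**
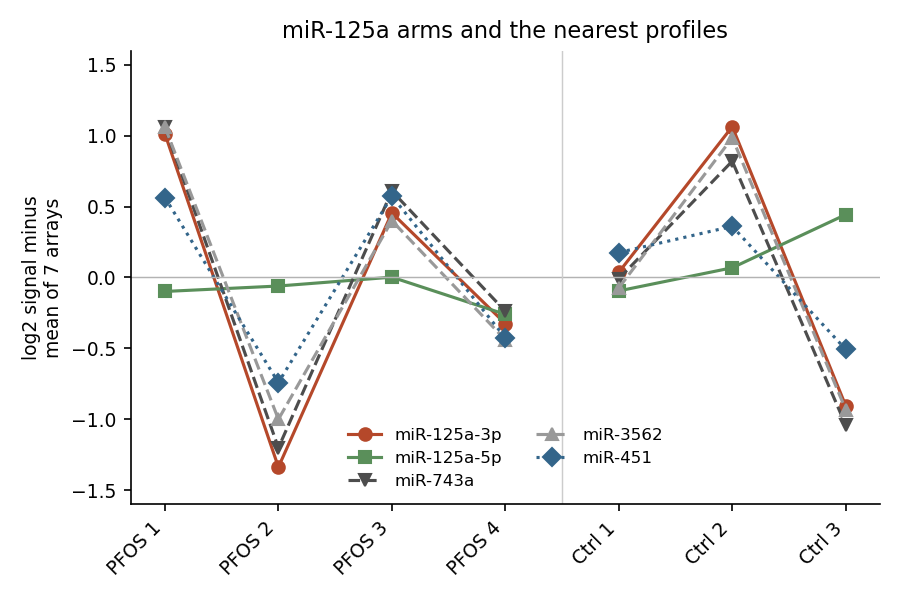
Log2 signal minus its mean over the 7 arrays for both arms of miR-125a, the 2 nearest miRNAs (miR-743a and miR-3562) and the erythroid miR-451, with the PFOS livers left of the Control livers. miR-125a-3p is low in PFOS 2 and Control 3 and high in PFOS 1 and Control 2, a pattern that miR-125a-5p does not follow.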

How the data were processed

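The title of each sample gave its group, and replicate numbers serve as names. Per the file headers, spot intensity values came from Feature Extraction 10.7.3.1 on 1-colour arrays of 1 slide; the deposited processed signal is background-subtracted but not scaled between arrays. The deposited series table is in log2 and was normalised by the authors with cyclic lowess, per the labels, with settings not given in the sources used here. Spots of a probe were averaged without outlier-flagged spots (13540 non-control spots, 1644 probes), probes of a miRNA were summed, and the 75th percentile of the 123 miRNAs found on every array was made equal between arrays. A floor of 12.1 (1st percentile of the values of detected miRNAs) replaced anything lower. Cyclic loess on log2 values followed (span 0.7, 3 iterations, weights on those 123), then lmFit and eBayes (limma 3.58.1, R 4.3.3; 6.52 degrees of freedom per miRNA) with Benjamini-Hochberg adjustment over 175 miRNAs. Arm ratios were fitted the same way over 24 precursors. The fit was tested on simulated data. Every member, the let-7 partners and miR-10 relatives were named, with the 3 non-member miRNAs nearest to miR-99a, miR-100 and miR-125b-5p; the miRNAs nearest to miR-125a-3p were added after the values were seen. The members and lists were chosen with earlier results of these data known. Alternatives changed scaling, background, summary, floor, filter and slide row, and left out each array. The planned mean pixel signal was not among the columns used, so median pixel signals were used for normexp (offset 50). The number of arrays limits the precision.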

Additional observations from a re-analysis of the deposited data

Results flagged for a closer look

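Each measure of the tested members, partners and arm ratios was screened on the 4 PFOS arrays for a liver far from the rest, as the gap to its nearest neighbour over the range of the group. Of 12 measures, 3 stood out, and chance flags about 1 in 20 groups. The 12 measures share the same 4 arrays, and the miR-99a arm ratio holds the miR-99a* values. The count of 3 therefore cannot be set against that share. For miR-99a* the ratio was 0.87, with PFOS liver 2 far below the other PFOS livers (22.9 against 31.4 to 32.9). For let-7c it was 0.886, again with PFOS liver 2 lowest (1866 against 2087 to 2117). For the arm ratio miR-99a over miR-99a* it was 0.848, with PFOS liver 1 lowest (4.94 against 5.16 to 5.20) and still above all Control livers.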

How the results depend on the processing

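No member was called under any of 20 alternatives. Among the settings that scale arrays differently, the members' median log2 difference of −0.09 moved to 0.23 with the 75th percentile over all miRNAs, −0.45 with the labelling spike-in and 0.68 without scaling, while all tested miRNAs had a median of 0.25, −0.43 and 0.69 in these settings; leaving out 1 array gave −0.13 to 0.07. The miR-99a arm ratio difference of 0.47 was 0.36 with quantile normalisation, 0.35 with normexp, 0.64 with the median over spots and −0.18 in the authors' deposited table, and 0.34 to 0.53 without 1 array (0.34 without Control replicate 3); the cause was not tested. Without PFOS replicate 2, 3 or 4, or with only miRNAs detected on every array, miR-99a* was not tested and no ratio was available. The miR-125a arm ratio difference of −0.13 was −0.67 to 0.56 without 1 array. It was −1.11 without the arrays of lowest and highest miR-125a-3p, an alternative chosen after seeing the data. Each alternative moved this ratio difference from −0.13 by less than the within-group SD of 1.08. The sign of the members' own differences followed the scaling, all 6 being positive without scaling (0.32 for miR-99a* to 0.81 for miR-100) and all 6 negative with the spike-in (−0.81 for miR-99a* to −0.32 for miR-100). Scaling was not the only step that moved them. Over all alternatives miR-100 lay between −0.32 and 0.95, and miR-125a-5p between −0.71 and 0.49. In the deposited table miR-99a was −0.20, and with the 75th percentile over all miRNAs miR-125b-5p was 0.26, miR-125a-3p 0.20 and miR-125a-5p 0.04. Among the partners, differences changed sign for let-7e at 0.13 (75th percentile over all miRNAs) and 0.57 (no scaling), for miR-10a-5p at −0.00994 (quantile), −0.37 (spike-in), −0.0575 (deposited table), −0.0456 (slide row 2) and −0.0352 (without Control replicate 1, of a range to 0.163 without 1 array), for let-7a at −0.32 (spike-in) and −0.29 (deposited table), and for let-7c at −0.31 (spike-in), −0.22 (deposited table) and −0.0109 (without Control replicate 1, of a range to 0.0884). For miR-99a, miR-125b-5p stayed the nearest profile except under quantile normalisation (rank 3) and the median over spots (rank 56), and miR-451 ranked 6th for miR-125a-3p except under normexp (45), the deposited table (98) and the median over spots (22). For miR-100, miR-199a-5p moved from nearest to rank 2 with either 75th percentile, the spike-in or no scaling, 3 with normexp, 7 with quantile normalisation and 19 with the median over spots. Over all tested miRNAs, the calls higher and lower in PFOS livers were 53 and 0 without scaling, 0 and 9 in the deposited table, 0 and 8 with the spike-in, 5 and 1 with normexp, 3 and 0 with the 75th percentile over all miRNAs, 3 and 1 with the slide row as a block and 0 and 1 without the filter. No paired analysis was possible because the 2 diets were given to different rats and the labels name no pairs. Replicate numbers were given in accession order and match no rat of 1 group to a rat of the other. The 4 arms detected on no array had too little signal over background to be measured, and miR-99a* was near that limit.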
